A study of Danio rerio with 20 samples.

Results

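MicroRNAs were compared between wild-type zebrafish (Danio rerio) at 30 days post fertilisation (dpf), when the animals are juveniles, and wild-type zebrafish at 5 dpf, when they are larvae. The comparison used the 10 wild-type samples among the 20 samples of the series, 6 at 30 dpf and 4 at 5 dpf, and the other 10 came from the dystrophin mutants sapje and sapje-like at the same ages. All fish carried the TL strain label and were raised in fish water on a shrimp diet, and RNA was taken from the whole fish with 10 fish per cohort. The wild types belonged to 2 cohorts, SLW, the wild type set against sapje-like, and SW, the wild type set against sapje. At 30 dpf the samples were SLW replicates 2, 5 and 8 and SW replicates 2, 3 and 4, and at 5 dpf they were SLW replicates 1 and 2 and SW replicates 1 and 2. Whether samples of one age and cohort were drawn from different fish is not stated in the labels, so errors and p-values measure the spread between these samples, which may be technical.

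MicroRNAs are short RNAs that guide a silencing complex to messenger RNAs, mainly through the seed, the run of bases near their 5′ end, so microRNAs with one seed form a family with shared targets. The let-7 family is known from Caenorhabditis elegans as a timer of late development, and its members accumulate as animal tissues mature. In zebrafish the miR-430 family is made when the zygote starts its own transcription and clears maternal messenger RNAs, and the miR-10 and miR-196 genes lie inside the Hox clusters, which pattern the body axis. Other microRNAs mark tissues, such as miR-9 and miR-124 in the nervous system, miR-451 in red blood cells, miR-223 in granulocytes, miR-1, miR-133 and miR-206 in skeletal muscle, and miR-192, miR-194 and miR-122 in gut and liver. A measurement on whole fish weighs all tissues together, and fewer cells of a type and less of a microRNA per cell cannot be told apart in it.

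The mature sequences that the array's probes target, copied from the deposited scanner files, are shown here for the microRNAs with the largest differences, because the families that moved together are defined by their seeds. Letters run 5′ to 3′, and capitals mark the seed, bases 2 to 8. The first set holds microRNAs that were higher at 30 dpf.
let-7a: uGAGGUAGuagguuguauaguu
let-7f: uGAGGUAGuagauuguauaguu
let-7c: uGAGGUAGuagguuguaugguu
miR-15a: uAGCAGCAcagaaugguuugug
miR-15b: uAGCAGCAcaucaugguuugua
miR-152: uCAGUGCAugacagaacuuugg
miR-148: uCAGUGCAuuacagaacuuugu
miR-27c: uUCACAGUgguuaaguucugc
miR-146a: uGAGAACUgaauuccauagaugg
miR-223: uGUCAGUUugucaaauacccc
miR-451: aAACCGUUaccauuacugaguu
miR-462: uAACGGAAcccauaaugcagcu
miR-731: aAUGACACguuuucucccggaucg
miR-738: gCUACGGCccgcgucgggaccuc
miR-21: uAGCUUAUcagacugguguuggc
The second set holds microRNAs that were lower at 30 dpf.
miR-10a: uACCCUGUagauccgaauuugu
miR-10b: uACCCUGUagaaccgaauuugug
miR-10c: uACCCUGUagauccggauuugu
miR-10d: uACCCUGUagaaccgaaugugug
miR-196a: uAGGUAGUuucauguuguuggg
miR-430a: uAAGUGCUauuuguugggguag
miR-430b: aAAGUGCUaucaaguugggguag
miR-430c: uAAGUGCUucucuuugggguag
miR-9: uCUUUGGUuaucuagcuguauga
miR-9*: uAAAGCUAgauaaccgaaagu
miR-124: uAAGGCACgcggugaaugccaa
miR-184: uGGACGGAgaacugauaagggc
miR-454b: uAGUGCAAuauugcuuauaggg
Within a family the mature sequences are close. Counting differing positions from the 5′ end, the 10 let-7 members on the array differ from each other at 1 to 6 positions, the 4 miR-10 members at 1 to 4, and miR-196a and miR-196b at 1. How far a probe also captures its near-identical relatives was not tested, so the separate values of such members are uncertain. The seed of miR-196a, AGGUAGU, also stands in let-7a, moved along by a base from let-7's own seed GAGGUAG, and the 2 families differed between the ages in opposite directions.

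Values are spot intensities after background correction, on a log2 scale, averaged over the 12 spots of a probe and brought to one distribution across samples by quantile normalization. Differences are 30 dpf minus 5 dpf on that log2 scale, with the standard error of a limma fit that also held terms for cohort and dye, so a difference of 1 is a 2-fold change. Of the mature microRNA probes, 163 exceeded background in at least 2 samples of a wild-type group and were tested, and 56 were not tested. The number of probes above background in a sample had a median of 151.5 (highest 173) at 30 dpf and ran from 105 to 147 at 5 dpf. The ages overlapped in this number, since the lowest sample of 30 dpf lay below the highest of 5 dpf. Background correction adds a constant to the signal, which understates the fold of dim probes. Where no sample of one age exceeded background for a probe, its fold is given as "at least", from the mean of the brighter age and, in each sample of the dimmer age, the higher of the probe's own value and the dimmest probe above background there. In sentences that list values, those at 30 dpf are the lowest, median and highest of the 6 samples, and those at 5 dpf are SLW replicates 1 and 2 followed by SW replicates 1 and 2.

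The labelled tissue was whole fish, and markers of many tissues were above background in all 6 samples at 30 dpf and all 4 at 5 dpf, among them miR-1 and miR-206 of striated muscle, miR-124 of neurons, miR-126 of endothelium, miR-203a of skin, miR-451 of red blood cells and miR-192 of the gut. A pair of samples stood apart from the rest of their age. Over the 163 tested probes, SLW replicate 8 at 30 dpf correlated at 0.835 to 0.884 with the other 5 samples of 30 dpf, which correlated at 0.956 to 0.985 among themselves. Its mean level of the gut and liver list was 11.85, against 7.17 to 7.40 in those 5, and its mean level of the striated muscle list was 10.96, against 12.16 to 12.63. SLW replicate 1 at 5 dpf correlated at 0.841 to 0.905 with the other 3 samples of 5 dpf, which correlated at 0.939 to 0.965 among themselves. Its first probe for 5S ribosomal RNA read 9.91 before normalization, against 13.63 to 15.14 in the other 9 samples. The correlation between any sample of 30 dpf and any of 5 dpf was 0.661 to 0.779. Where leaving out either sample changed a call of a probe named below, the value without it is given. Both samples were picked out from these same data, so p-values without them are not separate tests.

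Of 163 tested probes 83 differed between the ages: 45 (27.6%) were higher and 38 (23.3%) lower at 30 dpf at a limma adjusted p under 0.05, and 80 did not pass the test. Differences ran from -3.61 (miR-10a) to 3.66 (miR-462) with a median of 0.04, and 33 of the higher and 26 of the lower calls exceeded 1. Differences over 2, which is over 4-fold, were found for 10 of the higher and 11 of the lower calls. The samples of the 2 ages did not overlap for 63 of 163 tested probes (38.7%), among them 33 of the 45 higher and 26 of the 38 lower calls. For 12 tested probes above background at 30 dpf alone, and 3 at 5 dpf alone, the filter itself set the direction. The filter asks for at least 2 samples of a group. Probes above background in 1 sample of an age, such as let-7e and let-7g at 5 dpf, therefore also passed through the other age alone. Such probes are not in that count. Each of the 83 calls had the same sign in both cohorts and in both dyes. Those fits split the same samples that gave the calls, so the shared sign is not separate support. Without SLW replicate 8 at 30 dpf there were 49 higher and 46 lower calls, without SLW replicate 1 at 5 dpf 46 and 44, and without both samples 50 and 51. Between 38 and 49 probes were higher and between 31 and 46 lower when any 1 of the 10 samples was left out. The balance of higher and lower depended on the scaling, since cyclic loess gave 36 higher and 43 lower and median scaling 35 and 44, with medians over all tested probes of -0.07 and -0.21.

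**Figure D1:**
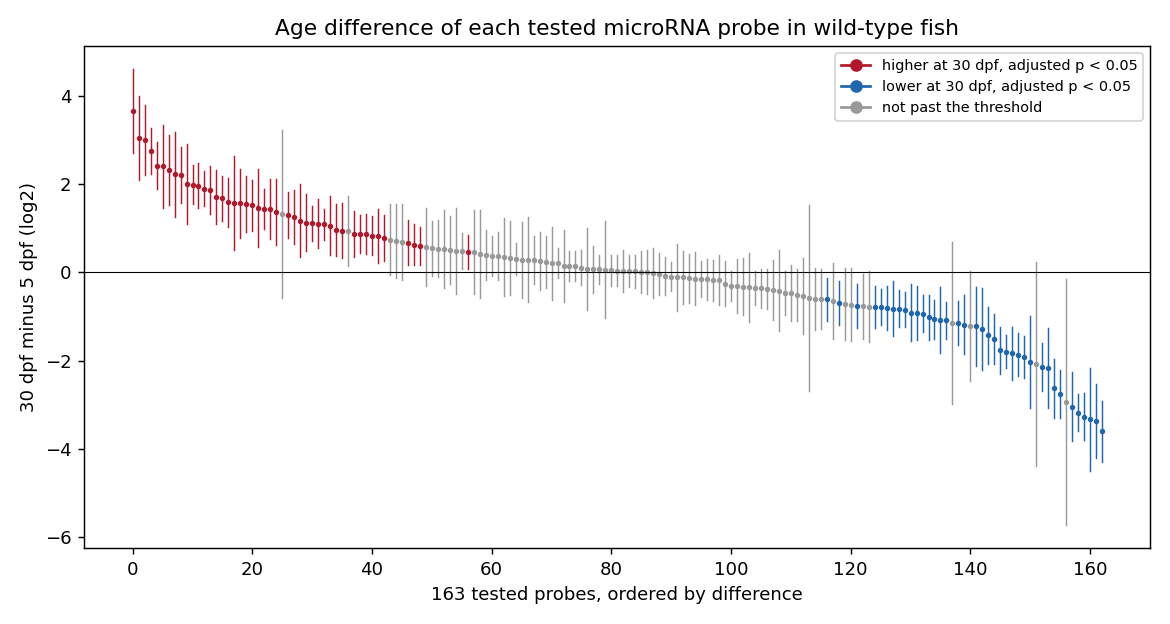
Difference between 30 dpf and 5 dpf (log2, y axis) of the 163 tested probes in order of size (x axis), with 95% confidence intervals from limma as vertical lines. The 45 probes higher at 30 dpf reach 3.66 on the left and the 38 lower reach -3.61 on the right, while the widest intervals belong to probes that did not pass the threshold.

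The probes were read in 31 lists of tissue markers and families, of which 30 had a tested probe. In 3 of the lists with 2 or more tested probes every tested member was higher at 30 dpf: the let-7 family (10 of 10), miR-148 with miR-152, and miR-462 with miR-731 (2 of 2 each). In another 2 every tested member was lower: the Hox cluster list (6 of 6) and the miR-430 family (4 of 4). Among the members counted here, let-7h, let-7i, let-7j, miR-148 and miR-731 exceeded background in no sample of 5 dpf. In the same way miR-430a, miR-430c and miR-430j exceeded it in no sample of 30 dpf. let-7e and let-7g exceeded it in 1 sample each of 5 dpf, and miR-430b in 1 sample of 30 dpf. Those probes too passed the filter through the other age alone. For these probes the filter set the direction, so their calls add no separate support. Members of the miR-23, miR-24 and miR-27 list were higher in 7 of 8 cases, and of the 5 tested nervous system markers 4 were lower. The injury-responsive list was the 1 list with calls both ways. Over all tested probes the shares were 27.6% higher and 23.3% lower.

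**Figure D2:**
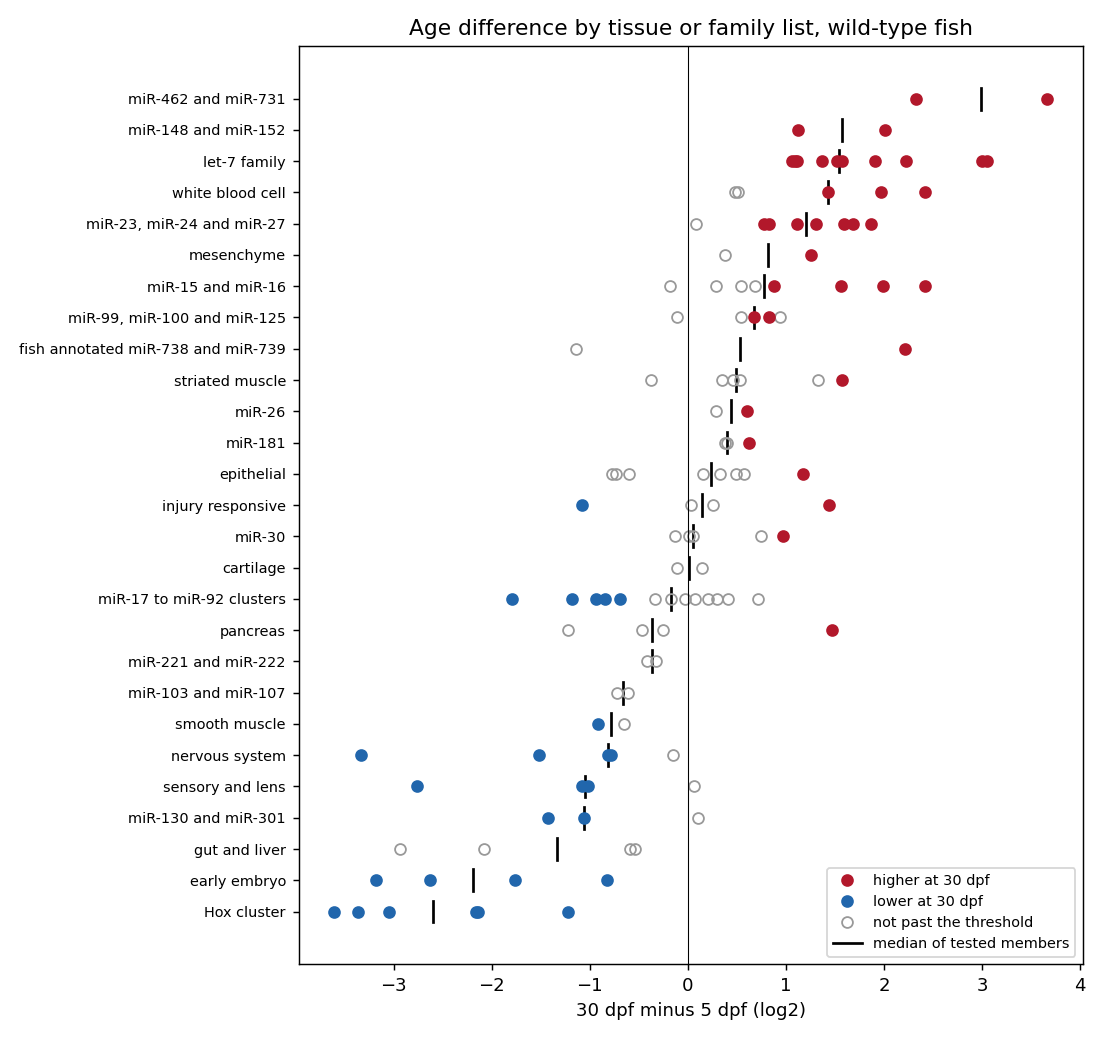
Difference between 30 dpf and 5 dpf (log2, x axis) of each tested probe, by list (y axis, ordered by median, with lists of 2 or more tested probes). Filled points passed the limma threshold, open points did not, and black ticks are medians, which run from 2.99 for miR-462 and miR-731 to -2.60 for the Hox cluster list.

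All 10 probes of the let-7 family were higher at 30 dpf, beside 27.6% of all tested probes, with a median difference of 1.55 against 0.04 over all tested probes. The mean level of the family was 8.16 to 9.75 in the 6 samples of 30 dpf and 7.09 to 7.39 in the 4 samples of 5 dpf, so the ages did not overlap. For let-7a the values were 10.61, 11.43 and 12.09 at 30 dpf, against 9.30, 8.09, 8.19 and 8.04 at 5 dpf. The highest larval value was that of SLW replicate 1, and it still lay below every juvenile value. This amounted to a difference of 3.00 ± 0.35 (7.99-fold higher, limma adjusted p = 0.00012). For let-7f the values were 8.32, 9.95 and 11.06 at 30 dpf and 7.32, 6.84, 6.71 and 6.75 at 5 dpf, and the probe was above background in all 6 samples of 30 dpf but in 2 of 4 at 5 dpf. The difference was 3.05 ± 0.42 (8.3-fold higher, limma adjusted p = 0.00035). For let-7c it was 2.23 ± 0.43 (4.69-fold higher, adjusted p = 0.00221), with 8.54, 10.36 and 11.48 at 30 dpf against 8.39, 7.86, 8.04 and 8.25 at 5 dpf, and SLW replicate 8 was the lowest of the 6. The other 7 members differed by 1.06 (let-7b) to 1.91 (let-7i), and 3 of them, let-7h, let-7i and let-7j, exceeded background in no sample of 5 dpf, so their folds are lower bounds of 1.74, 3.57 and 1.83. These 7 names fall outside the rule for named probes and were chosen after their values were seen. Among them let-7b and let-7d overlapped between the ages, and let-7b lost its call without SW 5 dpf replicate 1. let-7e and let-7g were each above background in 1 of 4 larval samples. Like let-7h, let-7i and let-7j, they passed the filter through the juvenile samples alone. The filter set the direction of these members, so their calls add no separate support to the 10 of 10. Fitted within a cohort, SLW alone gave calls for 1 of the 10 family members and SW alone for all 10.

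MicroRNAs whose genes neighbour those of let-7 gave smaller differences. The genes of miR-100 and miR-125b lie within 10 kb of a let-7a gene, and those of miR-99 and miR-125c near a let-7c gene, in the RefSeq gene table. In the list of miR-99, miR-100 and miR-125, 2 of 5 members were higher and none lower, beside 27.6% higher over all tested probes, with a median of 0.68. The difference was 0.83 ± 0.27 for miR-125b (limma adjusted p = 0.0288), whose values were 11.39, 11.79 and 12.16 at 30 dpf and 11.43, 10.45, 11.34 and 10.40 at 5 dpf, with overlapping ages. For miR-100 it was 0.68 ± 0.23 (adjusted p = 0.0297). The call for miR-125b was lost without SLW 30 dpf replicate 2 or 5, SW 30 dpf replicate 3 or 4, SLW 5 dpf replicate 2 or SW 5 dpf replicate 2 (difference 0.66 to 0.82, limma adjusted p = 0.0547 to 0.0952). That for miR-100 was lost without SLW 30 dpf replicate 2 or 5, SW 30 dpf replicate 2 or 3, SLW 5 dpf replicate 2 or SW 5 dpf replicate 1 (difference 0.55 to 0.72, limma adjusted p = 0.0504 to 0.097). Other scalings also ended both calls: for miR-125b with quantile normalization within each age (0.58, adjusted p = 0.0975), cyclic loess (0.41, adjusted p = 0.253) and median scaling (0.53, adjusted p = 0.183), and for miR-100 with quantile normalization within each age (0.40, adjusted p = 0.189), cyclic loess (0.31, adjusted p = 0.384), median scaling (0.52, adjusted p = 0.188) and the authors' deposited table (0.81, adjusted p = 0.0737). The values for miR-99 (0.94 ± 0.35, adjusted p = 0.0515), miR-125c (0.55 ± 0.27) and miR-125a (-0.11 ± 0.34) did not pass the test, although miR-99 did without SLW replicate 8 at 30 dpf (difference 1.16, limma adjusted p = 0.00294). It lay near the threshold, and its call was also gained with a normexp offset of 16 (0.98, adjusted p = 0.047), a filter for probes above background in every sample of a group (0.94, adjusted p = 0.0464), all 20 samples in the fit (0.93, adjusted p = 0.0349), no dye term (0.94, adjusted p = 0.0372), no cohort term (0.94, adjusted p = 0.0384) and the replicate block (0.99, adjusted p = 0.0405).

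The largest increase belonged to a pair of microRNAs known from teleost fish, where their shared cluster responds to hypoxia and to viral infection. For miR-462 the values were 8.79, 10.75 and 11.34 at 30 dpf, against 6.83, 6.94, 7.23 and 6.86 at 5 dpf. All 6 juvenile samples lay above all 4 larval ones, although SLW replicate 2 at 30 dpf sat well below the other 5. The difference was 3.66 ± 0.42 (12.7-fold higher, limma adjusted p = 0.000117). Its partner miR-731 had 8.06, 9.02 and 10.07 at 30 dpf and 6.62, 6.57, 6.69 and 6.69 at 5 dpf, where no sample was above background. It differed by 2.33 ± 0.35 (at least 4.42-fold higher, adjusted p = 0.000613). The fish-annotated miR-738 was higher by 2.22 ± 0.28 (4.65-fold, adjusted p = 0.000207), with 9.68, 10.27 and 10.64 at 30 dpf and 8.09, 7.40, 8.54 and 7.93 at 5 dpf, again without overlap. Its list neighbour miR-739 gave -1.14 ± 0.81 (adjusted p = 0.271), where a single larval sample, SLW replicate 1, read 13.94 and the other 3 between 8.25 and 9.68. Without that sample miR-739 differed by 0.21 (limma adjusted p = 0.62), so its direction rested on it.

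The blood and vessel markers that passed the test were all higher at 30 dpf. miR-451, which in vertebrates is made in red blood cell precursors, had 10.27, 10.61 and 11.18 at 30 dpf and 8.04, 8.06, 7.53 and 8.44 at 5 dpf. The ages were far apart, and the difference of 2.75 ± 0.23 was 6.72-fold (limma adjusted p = 3.85e-05). Its cluster partner miR-144 exceeded background in no sample of either age and was not tested. Of 5 tested white blood cell markers 3 were higher and none lower, beside 27.6% higher over all tested probes, with a median of 1.43. The miR-142 probes of that list exceeded background in no sample of either age and were not tested. The NF-kB-induced miR-146a had 8.04, 8.79 and 10.27 at 30 dpf and 6.61, 6.51, 6.56 and 6.72 at 5 dpf, where no sample exceeded background. It was at least 4.63-fold higher (2.42 ± 0.42, adjusted p = 0.00121), but the filter set its direction, so its call adds no separate support. miR-223, a granulocyte and myeloid microRNA, had 8.32, 9.08 and 9.45 at 30 dpf against 7.16, 6.63, 7.32 and 6.97 at 5 dpf, and it differed by 1.97 ± 0.23 (3.91-fold higher, adjusted p = 0.000112). It was above background in all 6 juvenile samples but in 2 of the larval ones, so its larval level lay near background and the fold is uncertain. miR-146b differed by 1.43 ± 0.30 (adjusted p = 0.00378), without overlap between the ages. The lymphocyte microRNAs miR-150 (0.51 ± 0.34, adjusted p = 0.246) and miR-155 (0.49 ± 0.18, adjusted p = 0.0521) did not pass the test. The call for miR-150 was gained with quantile normalization within each age (0.89, limma adjusted p = 0.0355). miR-155 exceeded background in no larval sample, so the filter set its direction as well. For miR-155 the ages did not overlap, and its call was gained without SLW 30 dpf replicate 2 (difference 0.54, limma adjusted p = 0.0452) and with a normexp offset of 16 (0.75, adjusted p = 0.0265), the authors' deposited table (1.58, adjusted p = 0.0139), no filter (0.49, adjusted p = 0.0315), no dye term (0.48, adjusted p = 0.0375) and no cohort term (0.49, adjusted p = 0.0384). The endothelial miR-126 was higher by 0.95 ± 0.28 (adjusted p = 0.0183), with 11.43, 11.69 and 12.16 at 30 dpf and 11.53, 10.64, 10.40 and 10.45 at 5 dpf, and the call was lost without SW 30 dpf replicate 3 or SW 5 dpf replicate 1 or 2 (difference 0.72 to 0.85, limma adjusted p = 0.0532 to 0.0955) and with quantile normalization within each age (0.69, adjusted p = 0.0627), cyclic loess (0.69, adjusted p = 0.107) and median scaling (0.80, adjusted p = 0.0975).

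The miR-15 and miR-16 family, known for restraining cell cycle genes such as cyclins, had 4 of 8 members higher and none lower, with a median of 0.78. Over all tested probes 27.6% were higher. For miR-15b the values were 10.13, 10.46 and 11.00 at 30 dpf and 8.15, 8.39, 7.69 and 8.32 at 5 dpf, and it was 5.36-fold higher (2.42 ± 0.24, limma adjusted p = 6.14e-05). For miR-15a they were 9.64, 10.07 and 10.27 and, at 5 dpf, 7.72, 8.29, 7.90 and 8.48, which gave 1.99 ± 0.20 (3.97-fold higher, adjusted p = 6.14e-05). Juvenile samples of both probes spanned about 1 log2 unit or less and lay above every larval sample. The other calls were miR-457a and miR-457b, while miR-16a, miR-16b and miR-16c did not pass the test. The miR-457 and miR-16 names fall outside the rule for named probes and were chosen after their values were seen. The 7 tested probes with the seed AGCAGCA all differed in the upward direction, while miR-15c of the same list has another seed and gave -0.18, a value named after it was seen.

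Members of the miR-23, miR-24 and miR-27 clusters, which in mammals act in endothelium and in fat cell differentiation, were higher in 7 of 8 cases, with a median of 1.21. The share higher over all tested probes was 27.6%. miR-27c had 8.29, 9.09 and 9.59 at 30 dpf against 7.40, 7.47, 6.97 and 6.90 at 5 dpf (1.87 ± 0.24, 3.66-fold higher, limma adjusted p = 0.000207). miR-23a had 12.16, 12.49 and 12.67 at 30 dpf against 10.27, 10.86, 11.29 and 10.61 at 5 dpf (1.68 ± 0.22, 3.21-fold higher, adjusted p = 0.000276). Neither overlapped between the ages. miR-24 was the exception, at 0.08 ± 0.41 with a 95% interval of -0.86 to 1.01, and its estimates in the cohorts ran in opposite directions (1.07 in SLW and -0.91 in SW).

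miR-148 and miR-152 share a seed, and mammalian members of this family target a DNA methyltransferase. miR-152 had 9.45, 9.96 and 10.76 at 30 dpf and 7.23, 8.86, 7.75 and 8.73 at 5 dpf, which gave 2.01 ± 0.40 (4.03-fold higher, limma adjusted p = 0.00273). miR-148, not above background in any larval sample, was at least 1.77-fold higher (1.13 ± 0.29, adjusted p = 0.00956), and median scaling ended that call (adjusted p = 0.16). The mesenchyme microRNA miR-199 differed by 1.25 ± 0.27 (adjusted p = 0.00425) and the other strand of its hairpin, miR-199*, by 1.71 ± 0.27 (3.27-fold higher, adjusted p = 0.000702). For miR-199* the values were 13.08, 13.64 and 13.94 at 30 dpf and 12.09, 12.39, 11.10 and 11.96 at 5 dpf. Cyclic loess ended the call for miR-199 (adjusted p = 0.0944). miR-214, from the same transcript as miR-199 in vertebrates, gave 0.38 ± 0.20 and did not pass the test, but it did without SW 5 dpf replicate 1 (difference 0.59, limma adjusted p = 0.0398).

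The injury-responsive list split. miR-21, which rises in injured and inflamed tissue and acts in the zebrafish heart valve, had 13.64, 13.94 and 14.30 at 30 dpf and 12.16, 12.49, 12.80 and 12.30 at 5 dpf, a difference of 1.44 ± 0.20 (2.71-fold higher, limma adjusted p = 0.00037). All 6 juvenile samples exceeded all 4 larval ones. miR-34, a p53 target in mammals, was lower (-1.08 ± 0.33, 2.11-fold, adjusted p = 0.0229), with 7.13, 7.41 and 7.51 at 30 dpf and 7.27, 8.54, 8.82 and 9.34 at 5 dpf. The larval sample SLW replicate 1 lay within the juvenile range, and the call was lost without SW 30 dpf replicate 3, SLW 5 dpf replicate 2 or SW 5 dpf replicate 1 or 2 (difference -1.05 to -0.83, limma adjusted p = 0.0548 to 0.106) and with quantile normalization within each age (-0.84, adjusted p = 0.0586). miR-31 (0.26 ± 0.29) and miR-34c (0.03 ± 0.16) did not pass the test. The list's median of 0.14 turned to -0.16 with median scaling.

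**Figure D3:**
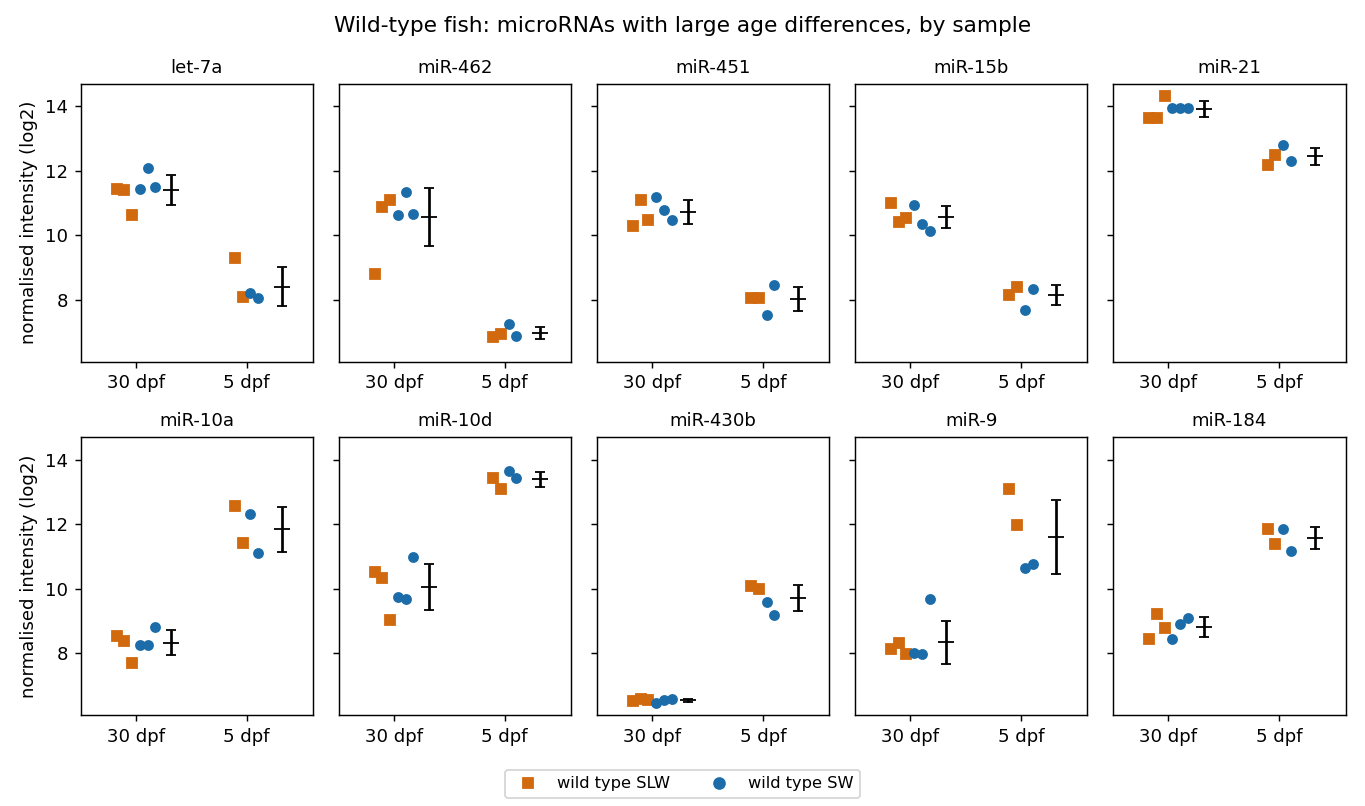
Normalised intensity (log2, y axis) in each wild-type sample at 30 dpf and 5 dpf (x axis) for 10 microRNAs with large differences, squares for SLW and circles for SW, with the mean and SD of each age in black. No panel has a sample of one age inside the range of the other, and in the limma fit miR-10a differs by -3.61 and miR-462 by 3.66. The panels are a choice of calls with large differences and no overlap, so that separation follows from the choice. The ages did not overlap for 38.7% of all tested probes.

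Hox cluster microRNAs gave the largest decreases. All 6 tested probes, miR-10a to miR-10d, miR-196a and miR-196b, were lower at 30 dpf, beside 23.3% over all tested probes, with a median of -2.60. In the RefSeq gene table the genes of miR-10a, miR-10b, miR-10c, miR-196a and miR-196b all lie within 10 kb of a Hox gene, and miR-10d was not matched. miR-10a had 7.69, 8.32 and 8.82 at 30 dpf against 12.57, 11.43, 12.30 and 11.10 at 5 dpf. The gap between the ages was over 2 log2 units at its narrowest, and the difference was -3.61 ± 0.31 (12.2-fold lower, limma adjusted p = 3.85e-05). miR-10d had 9.04, 10.04 and 11.00 at 30 dpf against 13.43, 13.08, 13.64 and 13.43 at 5 dpf (-3.37 ± 0.37, 10.3-fold lower, adjusted p = 0.000112). miR-10b had 9.50, 10.63 and 11.23 at 30 dpf against 13.64, 13.22, 14.30 and 13.08 at 5 dpf (-3.05 ± 0.35, 8.26-fold lower, adjusted p = 0.000112). miR-10c was 4.4-fold lower (-2.14 ± 0.24, adjusted p = 0.000112), and its 4 larval samples lay close together at 10.64, 10.40, 10.81 and 10.64. SLW replicate 8 was the lowest of the juvenile samples for miR-10a, miR-10b and miR-10d.

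The miR-196 members, which target Hox messenger RNAs, showed a larger spread. miR-196a had 6.77, 7.21 and 7.60 at 30 dpf and 10.76, 8.79, 9.27 and 8.29 at 5 dpf, a difference of -2.16 ± 0.40 (4.47-fold lower, limma adjusted p = 0.00185). miR-196b had 6.80, 7.39 and 7.66 at 30 dpf and 9.85, 8.19, 8.44 and 7.40 at 5 dpf, and its ages overlapped. Its difference of -1.23 ± 0.40 (adjusted p = 0.0279) lost its call without SLW 30 dpf replicate 5, SW 30 dpf replicate 2, SLW 5 dpf replicate 1 or 2 or SW 5 dpf replicate 1 (difference -1.31 to -0.71, limma adjusted p = 0.0508 to 0.0944) and with quantile normalization within each age (-1.04, adjusted p = 0.0865), median scaling (-1.41, adjusted p = 0.0503) and no filter (-1.23, adjusted p = 0.0561). In both, SLW replicate 1 at 5 dpf was the highest sample.

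The miR-430 family was the clearest case of microRNAs that were measured at 5 dpf and near the floor of the assay at 30 dpf. All 4 tested members were lower, with a median of -2.20, and the mean level of the family was 6.47 to 6.57 in the juveniles, against 8.08 to 9.03 in the larvae. Except for miR-430b in 1 sample, none exceeded background at 30 dpf, so these probes were tested on the strength of their larval signal and their direction was set by that filter. miR-430b had 6.46, 6.55 and 6.59 at 30 dpf and 10.07, 10.00, 9.59 and 9.17 at 5 dpf, a difference of -3.18 ± 0.19 (limma adjusted p = 6.09e-06). With 1 of 6 juvenile samples above background, its juvenile level and its small juvenile spread are those of the assay floor, so no fold is given. miR-430a had 6.47, 6.53 and 6.57 at 30 dpf and 10.20, 9.17, 8.94 and 8.06 at 5 dpf, and it was at least 5.24-fold lower (-2.63 ± 0.29, adjusted p = 0.000112). miR-430c was at least 3.12-fold lower (-1.76 ± 0.24, adjusted p = 0.000276), with larval values of 7.53, 8.99, 8.32 and 8.54. miR-430j was at least 1.52-fold lower (-0.82 ± 0.28, adjusted p = 0.0319). It was above background in 2 of the 4 larval samples, both of SLW, at 8.32 and 7.53, and its call was lost without SLW 30 dpf replicate 2 or 5 or SLW 5 dpf replicate 1 or 2 (difference -0.80 to -0.47, limma adjusted p = 0.059 to 0.11) and with no filter (-0.82, adjusted p = 0.0502).

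Of the 5 tested nervous system markers 4 were lower at 30 dpf and none higher, beside 23.3% lower over all tested probes, with a median of -0.81. The mean level of these 5 probes was 7.43 to 7.91 in the juveniles and 8.93 to 9.02 in the larvae, which did not overlap. miR-9, which zebrafish neural progenitors express, had 7.96, 8.06 and 9.68 at 30 dpf and 13.08, 11.96, 10.64 and 10.76 at 5 dpf. SW replicate 4 was the highest juvenile sample and still lay below the larvae, and the difference was -3.34 ± 0.52 (10.1-fold lower, limma adjusted p = 0.000694). The other strand of that hairpin, miR-9*, had 7.38, 7.53 and 7.93 at 30 dpf and 11.39, 11.06, 10.20 and 10.81 at 5 dpf (-3.27 ± 0.23, 9.67-fold lower, adjusted p = 1.64e-05). The neuronal miR-124 had 6.77, 6.94 and 7.10 at 30 dpf and 7.66, 8.65, 8.51 and 9.21 at 5 dpf (-1.52 ± 0.25, 2.87-fold lower, adjusted p = 0.000958). miR-132 (-0.78 ± 0.21, adjusted p = 0.0129) and miR-138 (-0.81 ± 0.22, adjusted p = 0.0127), both known from neurons, were lower without overlap. miR-128, a marker of mature neurons, gave -0.15 ± 0.18 with a 95% interval of -0.56 to 0.25. Another 6 probes of the list, among them miR-137, miR-153 and miR-219 members, were not tested.

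Markers of sense organs and lens were lower in 3 of 4 cases, beside 23.3% lower over all tested probes. miR-184, found in lens and surface epithelia, had 8.44, 8.84 and 9.21 at 30 dpf and 11.85, 11.39, 11.85 and 11.18 at 5 dpf. That gave -2.76 ± 0.25 (6.77-fold lower, limma adjusted p = 4.12e-05), and the cohorts gave almost the same value (-2.78 in SLW and -2.74 in SW). miR-182 (-1.08 ± 0.18, adjusted p = 0.00113) and miR-183 (-1.02 ± 0.23, adjusted p = 0.0049), which share a gene cluster and are expressed in hair cells and retina, were each about 2-fold lower. The fourth, miR-204 of lens and retinal pigment epithelium, gave 0.06 ± 0.49 with a 95% interval of -1.04 to 1.17.

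Of 13 tested probes of the miR-17 to miR-92 clusters, known for promoting cell proliferation in mammals, 5 were lower and none higher, beside 23.3% lower and 27.6% higher over all tested probes, and the median was -0.18. miR-18c had 7.40, 7.78 and 8.01 at 30 dpf and 9.80, 9.50, 9.55 and 9.09 at 5 dpf (-1.80 ± 0.16, 3.47-fold lower, limma adjusted p = 4.12e-05). miR-92b was lower (-1.19 ± 0.30, adjusted p = 0.00884), with 10.00, 10.33 and 10.76 at 30 dpf against 11.79, 11.00, 12.39 and 10.53 at 5 dpf. In the miR-130 and miR-301 list, miR-130b (-1.43 ± 0.29, adjusted p = 0.00288) and miR-130c (-1.06 ± 0.20, adjusted p = 0.00175) were lower without overlap, and miR-130a gave 0.10 ± 0.18. miR-454b, which shares their seed, had 7.36, 7.72 and 8.75 at 30 dpf and 11.29, 10.07, 9.13 and 9.13 at 5 dpf (-2.03 ± 0.46, 4.09-fold lower, adjusted p = 0.00545). A further pair outside the rule for named probes, chosen after its values were seen, was miR-218a (-1.83 ± 0.27) and miR-218b (-1.86 ± 0.21), which come from Slit genes and are known from motor neurons. Both were lower without overlap (adjusted p = 0.000458 and 0.000112).

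The calls of gut, liver and exocrine pancreas markers changed with the samples and the scaling. None of the 4 gut and liver probes passed the test, with a median of -1.33. miR-192 had 7.75, 7.98 and 14.65 at 30 dpf and 11.96, 12.80, 11.06 and 11.68 at 5 dpf, and the highest juvenile value was that of SLW replicate 8. The other 5 juvenile samples lay between 7.75 and 8.22, below all larvae. The difference was -2.94 ± 1.24 (limma adjusted p = 0.0787), and without that sample it was -3.89 (limma adjusted p = 3.02e-05). Likewise miR-194a gave -2.08 ± 1.03 (adjusted p = 0.128) and -2.86 (limma adjusted p = 8.78e-05) without it. The hepatocyte marker miR-122 gave -0.59 ± 0.93 (adjusted p = 0.629) and -1.29 (limma adjusted p = 0.008), and miR-194b -0.54 ± 0.38 (adjusted p = 0.266) and -0.79 (limma adjusted p = 0.0167). All 4 were therefore called lower at 30 dpf without SLW replicate 8, with a median of -2.07, beside 46 of 163 tested probes lower in that fit. That sample was picked out partly by its level of these same probes, so the p-values without it are not a separate test. With that sample kept, the call for miR-192 was gained with the authors' deposited table (-3.33, adjusted p = 0.0337) and all 20 samples in the fit (-2.87, adjusted p = 0.0371), and that for miR-194a with the authors' deposited table (-2.98, adjusted p = 0.0381).

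The exocrine pancreas microRNA miR-217 read 7.04, 7.21 and 9.80 at 30 dpf and 8.12, 9.21, 8.90 and 9.04 at 5 dpf, with the same sample highest. It gave -1.22 ± 0.55 (limma adjusted p = 0.0994) and -1.62 (limma adjusted p = 0.000351) without it, and its call was also gained without SLW replicate 1 at 5 dpf (difference -1.74, limma adjusted p = 0.0306) and with cyclic loess (-1.67, adjusted p = 0.0323) and the authors' deposited table (-2.08, adjusted p = 0.0275). miR-216a (-0.47 ± 0.28) and miR-216b (-0.26 ± 0.23) did not pass the test. The call for miR-216a was gained without SLW replicate 1 at 5 dpf (difference -0.75, limma adjusted p = 0.0486). The islet microRNA miR-375 went the other way, with 8.82, 9.70 and 10.34 at 30 dpf and 9.09, 7.96, 8.25 and 7.10 at 5 dpf, and it was 2.76-fold higher (1.47 ± 0.39, adjusted p = 0.0124). Its larval samples were spread over about 2 log2 units, and 1 of them lay within the juvenile range.

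**Figure D4:**
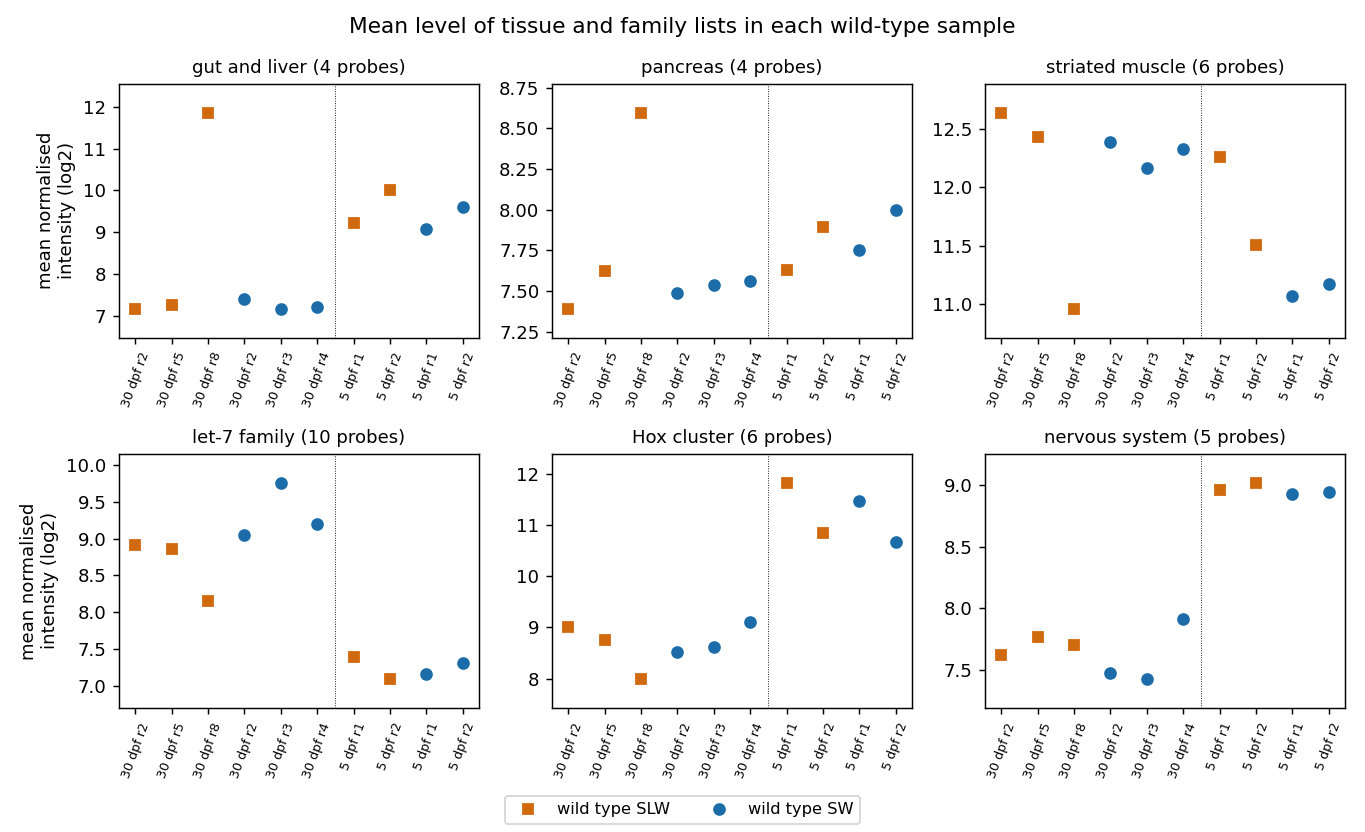
Mean normalised intensity (log2, y axis) of the tested probes of 6 lists in each wild-type sample (x axis, 30 dpf left of the dotted line and 5 dpf right of it), squares for SLW and circles for SW. For gut and liver SLW replicate 8 at 30 dpf reads 11.85 and the other 5 juveniles 7.17 to 7.40, while the let-7, Hox cluster and nervous system lists separate the ages in all samples.

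Of 6 tested striated muscle microRNAs 1 was higher and none lower, beside 27.6% higher over all tested probes, with a median of 0.49. Without SLW replicate 8 at 30 dpf, a sample picked out partly by its level of this list, 4 of 6 were higher, with a median of 0.72. In that fit 49 of 163 tested probes were higher. miR-1 had 13.94, 14.65 and 14.65 at 30 dpf and 14.30, 13.94, 11.60 and 12.09 at 5 dpf, and it was called higher by 1.57 ± 0.47 (limma adjusted p = 0.0206). It was the brightest probe in 5 of the 6 juveniles, and quantile normalization gives the brightest probe of each sample one common value, 14.65, so its juvenile level had no room to vary upward. The cohorts gave 0.30 in SLW and 2.85 in SW. Its call was lost without SW 30 dpf replicate 3 or SW 5 dpf replicate 1 or 2 (difference 1.08 to 1.41, limma adjusted p = 0.0587 to 0.11), and also with cyclic loess (adjusted p = 0.0774), median scaling (adjusted p = 0.135) and the authors' deposited table (0.0802). miR-206 was among the brightest probes of every sample, with 13.64, 14.30 and 14.30 at 30 dpf and 14.65, 14.65, 14.65 and 14.30 at 5 dpf (-0.37 ± 0.20, adjusted p = 0.152). miR-133a (0.35 ± 0.39), miR-133b (0.46 ± 0.42) and miR-499 (0.53 ± 0.39), which is made from a slow myosin gene, did not pass the test. Without SLW replicate 8 at 30 dpf miR-133a (difference 0.61, limma adjusted p = 0.0458) and miR-133b (difference 0.74, limma adjusted p = 0.0352) did.

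miR-133c rested on both samples that stood apart. It had 7.75, 10.57 and 10.86 at 30 dpf, the lowest being SLW replicate 8, and 11.18, 8.01, 8.09 and 7.82 at 5 dpf, the highest being SLW replicate 1. Its difference of 1.32 ± 0.84 (limma adjusted p = 0.22) became 1.88 (limma adjusted p = 0.0101) without the juvenile sample and 2.43 (limma adjusted p = 0.0183) without the larval one. The smooth muscle microRNAs pointed downward: miR-145 was lower (-0.92 ± 0.27, adjusted p = 0.018) and lost its call without SW 5 dpf replicate 1 (difference -0.80, limma adjusted p = 0.0814). miR-143 gave -0.65 ± 0.38 (adjusted p = 0.188), -0.87 (limma adjusted p = 0.0258) without SLW replicate 8 at 30 dpf and -1.07 (limma adjusted p = 0.0344) without SLW replicate 1 at 5 dpf.

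Among 8 epithelial probes, the miR-200 family member miR-429 was higher (1.18 ± 0.36, 2.26-fold, limma adjusted p = 0.0231), with 9.68, 10.78 and 11.34 at 30 dpf and 9.13, 9.96, 9.17 and 9.80 at 5 dpf. Its ages overlapped, cyclic loess ended the call (adjusted p = 0.134), and it was lost without SLW 5 dpf replicate 1 or SW 5 dpf replicate 1 or 2 (difference 0.96 to 1.20, limma adjusted p = 0.0521 to 0.11). The skin microRNA miR-203b gave -0.77 ± 0.35 (adjusted p = 0.103) and -0.91 (limma adjusted p = 0.0362) without SLW replicate 8 at 30 dpf, and its call was also gained with median scaling (-1.11, adjusted p = 0.0244) and all 20 samples in the fit (-0.83, adjusted p = 0.0325). The list's median was 0.24 and turned to -0.06 with cyclic loess, so the list had no settled direction. The same was true of the cartilage list of miR-140 and miR-455 (median 0.02, and -0.11 with median scaling).

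Several broadly expressed families had 1 member higher and none lower: 1 of 5 tested for miR-30, 1 of 2 for miR-26 and 1 of 3 for miR-181. Over all tested probes 27.6% were higher, so such counts do not set these families apart. In the miR-30 family, whose median was 0.05, miR-30b was higher by 0.97 ± 0.26 (limma adjusted p = 0.0128), with 9.13, 9.98 and 10.34 at 30 dpf and 9.04, 9.04, 8.69 and 8.82 at 5 dpf. miR-26b (0.60 ± 0.19, adjusted p = 0.0274) lost its call without SW 30 dpf replicate 2, 3 or 4, SLW 5 dpf replicate 1 or SW 5 dpf replicate 1 or 2 (difference 0.47 to 0.61, limma adjusted p = 0.0516 to 0.108) and with quantile normalization within each age (0.30, adjusted p = 0.236), cyclic loess (0.33, adjusted p = 0.214), median scaling (0.27, adjusted p = 0.304) and the authors' deposited table (0.65, adjusted p = 0.0874). miR-181b (0.63 ± 0.20, adjusted p = 0.028) lost its call without SLW 30 dpf replicate 2 or 5, SW 30 dpf replicate 3 or 4, SLW 5 dpf replicate 1 or SW 5 dpf replicate 2 (difference 0.51 to 0.62, limma adjusted p = 0.0504 to 0.0856) and with quantile normalization within each age (0.39, adjusted p = 0.129), cyclic loess (0.45, adjusted p = 0.0722) and median scaling (0.50, adjusted p = 0.0788). None of miR-103 (-0.72 ± 0.36), miR-107 (-0.61 ± 0.30), miR-221 (-0.32 ± 0.29), miR-222 (-0.42 ± 0.41) and miR-29a (0.15 ± 0.15) passed the test, and the first 4 were called lower without SLW replicate 1 at 5 dpf (differences of -1.21, -1.02, -0.70 and -1.07). In that larval sample each of these 4 read lower than in the other 3. With it kept, calls were gained for miR-221 with cyclic loess (-0.94, adjusted p = 0.0125) and median scaling (-0.80, adjusted p = 0.0117), for miR-222 with cyclic loess (-0.98, adjusted p = 0.0371) and median scaling (-0.82, adjusted p = 0.0334), for miR-107 with cyclic loess (-0.84, adjusted p = 0.0475) and all 20 samples in the fit (-0.62, adjusted p = 0.0108) and for miR-103 with all 20 samples in the fit (-0.73, adjusted p = 0.00632). The 2 probes of miR-101 were not tested.

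Some probes gave nearly equal values at both ages. The 95% interval of the difference lay within ±0.5 for 10 probes. Some of these were near the assay floor, such as miR-18b, miR-29a and miR-140, above background in no larval sample. For such dim probes a narrow interval does not show equal levels. The ages did not overlap for miR-140, whose call was gained with the authors' deposited table (1.03, limma adjusted p = 0.0401). A bright probe among the 10 was miR-30c, at 11.53 ± 0.23 at 30 dpf and 11.54 ± 0.35 at 5 dpf (SD, n = 6 and 4), with an interval of -0.48 to 0.50. Close to 0 as well, among probes above the median level, were miR-187 (-0.02 ± 0.25, interval -0.58 to 0.55), miR-22a (0.07 ± 0.24, interval -0.47 to 0.61), miR-204, miR-24 and miR-125a (interval -0.87 to 0.65). The intervals of these 5 reached beyond ±0.5, so differences of that size were within the error. Without SLW replicate 1 at 5 dpf miR-30c read -0.22 and miR-24 -0.36, neither of which passed the test.

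The strands of one hairpin were compared where both were tested, in 13 cases. In 4 of them both strands were called, always in the same direction: miR-9 with miR-9*, miR-10a with miR-10a*, miR-10d with miR-10d*, and miR-199 with miR-199*. For miR-9 the strands differed by almost the same amount (-3.34 and -3.27), while miR-10d* differed by -1.93 ± 0.21 beside -3.37 for miR-10d. miR-10a* was dim, and its difference of -0.61 ± 0.21 (limma adjusted p = 0.037) lost its call without SLW 30 dpf replicate 2 or 8, SW 30 dpf replicate 2 or 4, SLW 5 dpf replicate 1 or SW 5 dpf replicate 1 or 2 (difference -0.65 to -0.40, limma adjusted p = 0.0513 to 0.131) and with cyclic loess (-0.54, adjusted p = 0.0511) and no dye term (-0.55, adjusted p = 0.0713). In 2 cases the star strand alone was called, miR-133a* (0.88 ± 0.23, adjusted p = 0.0123) and miR-140* (-0.91 ± 0.28, adjusted p = 0.0238). The call for miR-133a* was lost without SW 5 dpf replicate 1 (difference 0.80, limma adjusted p = 0.0512) and with median scaling (0.49, adjusted p = 0.0798), and that for miR-140* without SW 5 dpf replicate 1 or 2 (difference -0.94 to -0.68, limma adjusted p = 0.0615 to 0.0655). In 1 case, miR-727 (-0.83 ± 0.19, adjusted p = 0.0049), the guide alone was called, beside -0.31 ± 0.15 for miR-727*, whose call was gained with median scaling (-0.80, adjusted p = 0.0143), the authors' deposited table (-0.83, adjusted p = 0.0383), no filter (-0.31, adjusted p = 0.0134) and all 20 samples in the fit (-0.29, adjusted p = 0.0353). Neither strand was called in 6 cases (miR-17a, miR-20a, miR-30e, miR-181a, miR-203b and miR-210), and differences had opposite signs in 5 of the 13. Without SLW replicate 1 at 5 dpf miR-210 (difference -0.64, limma adjusted p = 0.0486), miR-210* (difference -0.54, limma adjusted p = 0.0413) and miR-17a* (difference -0.51, limma adjusted p = 0.0304) were called lower. miR-20a was called without SW 30 dpf replicate 3 (difference 1.01, limma adjusted p = 0.0459) and miR-30e without SW 5 dpf replicate 2 (difference 1.14, limma adjusted p = 0.00357). With every sample kept, miR-30e was called with quantile normalization within each age (0.95, adjusted p = 0.0371) and the authors' deposited table (1.54, adjusted p = 0.0207). All 20 samples in the fit gave calls for miR-30e (0.75, adjusted p = 0.0243), miR-20a (0.70, adjusted p = 0.0494) and miR-17a* (-0.35, adjusted p = 0.0212), and cyclic loess for miR-210* (-0.70, adjusted p = 0.00733).

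There were 31 seeds shared by 2 or more tested probes, covering 98 probes, and 13 of these seeds had 2 or more calls. In all 13 the calls ran one way, and over called and uncalled members together 25 of the 31 seeds had 1 sign throughout. The other 6, with members on both sides of 0, were the seeds of miR-130 with miR-454, miR-30, miR-18, miR-125, miR-1 with miR-206, and miR-34. Genes within 10 kb of each other formed 40 sets with 2 or more tested probes, of which 17 had 2 or more calls, and in all 17 the calls ran one way, while 30 of the 40 sets had 1 sign throughout and 10 had members on both sides of 0. The sets overlap, since members of a family often lie in the same cluster, and near-identical probes can share signal. A probe with several gene copies, such as let-7a or miR-23a, also enters several gene sets, so the same calls are counted repeatedly. How often unrelated probes run one way was not counted.

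The cohorts SLW and SW were compared to ask whether they changed with age by different amounts. No probe passed for the age by cohort term of limma (0 of 163, 0%, with 19 at an unadjusted p under 0.05). The smallest p belonged to miR-1, where the SLW difference minus the SW difference was -2.51 ± 0.42 (adjusted p = 0.0567). Next came miR-454b (-3.20 in SLW and -0.86 in SW), miR-103 (0.17 in SLW and -1.61 in SW), miR-24, miR-454a (-1.10 in SLW and 0.08 in SW) and miR-430j (-1.46 in SLW and -0.19 in SW). The count was 0 to 10 when 1 sample was left out, and the 10 came without SLW replicate 2 at 5 dpf, where SLW replicate 1 stands alone for its cohort at that age and is assumed to vary like the other groups. Cohort itself, over both ages, separated no probe either (0 of 163, 0%, with 3 at an unadjusted p under 0.05). Fitted within a cohort, SLW alone gave 8 higher and 14 lower calls and SW alone 44 and 42. SLW holds both samples that stood apart.

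**Figure D5:**
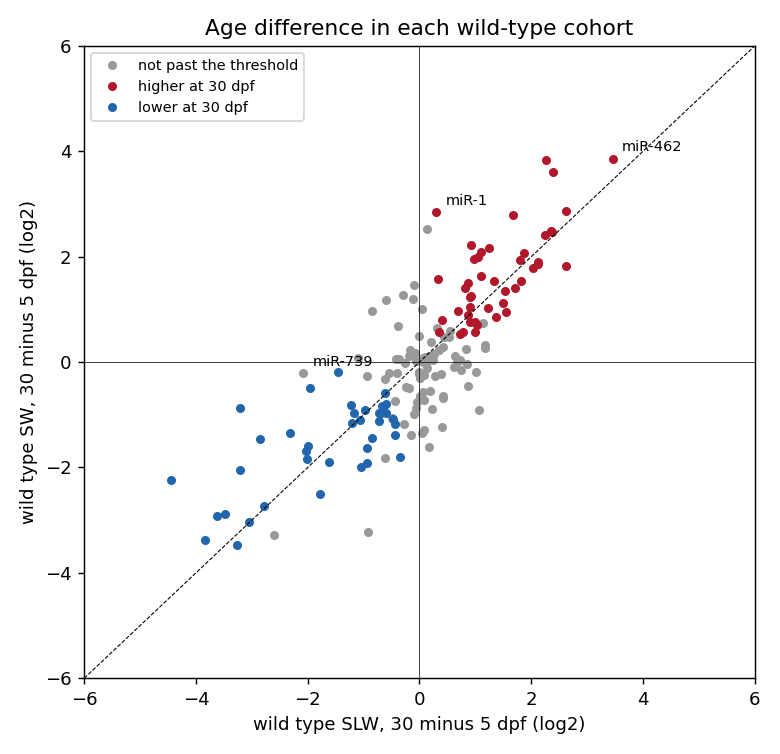
Difference between 30 dpf and 5 dpf (log2) of each tested probe in wild type SLW (x axis) and wild type SW (y axis), coloured by the call over both cohorts, with equality dashed. Called probes lie in the lower left and upper right quadrants, but their calls came from these same samples. miR-1 reads 0.30 in SLW and 2.85 in SW.

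The mutant samples of the same ages gave the comparison with the rest of the series. Of the 45 microRNAs higher at 30 dpf in wild types, 41 had the same sign in the mutants and 34 passed the limma threshold there, and of the 38 lower ones 36 and 29. The matching shares over all 163 tested probes in the mutants were not counted, so how far these counts exceed them is not known. The mutants' age difference itself differed from that of wild types for 11 of 163 probes (6.75%, with 34 at an unadjusted p under 0.05), tested in a limma fit of all 20 samples. It had terms for group and dye but none for the array, so its p-values ignore the sharing of arrays inferred below. The mutant values below come from that fit and the wild-type values from the fit of the 10 wild-type samples. Increases were smaller in the mutants for miR-15b (0.87 in mutants, 2.42 in wild types), miR-27c (0.47 and 1.87), miR-21 (0.45 and 1.44) and miR-199* (0.66 and 1.71). miR-152 differed by -0.04 in mutants, against 2.01 in wild types. The decrease was smaller in the mutants for miR-184 (-1.18 in mutants, -2.76 in wild types). miR-430b differed by -2.50 in mutants and -3.18 in wild types. Its juvenile wild-type level was that of the assay floor, so these values do not show a smaller decrease with age. Without SLW replicate 1 at 5 dpf, in fits chosen after seeing the data, the count was 8, and the difference between mutants and wild types no longer passed for miR-152 (-1.58, limma adjusted p = 0.108) and miR-199* (-1.01, limma adjusted p = 0.115). Without SLW replicate 8 at 30 dpf the count was 18. On the arrays each wild-type sample shared a slide with a mutant sample of its own age, as inferred from the residuals of single spots, so no array held both ages, and array and age cannot be told apart by this design.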

How the data were processed

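The files hold 2-colour microRNA arrays of 20 whole-fish samples, each sample being 1 dye channel. Per the labels' protocols, small RNA was isolated by size, polyadenylated and joined to a tag that took up the dye Cy3 or Cy5, at a service provider. The deposited scanner files hold the mean spot intensity of one channel with no background removed, per the file headers, in 3968 spots, 1048 of them empty. The authors' deposited value table holds 1 processed intensity per probe and sample on a linear scale. How they corrected and scaled it is not given in the sources used here, so its scale and centring are unknown. It served as an alternative, correlating at 0.968 to 0.983 with the log2 values computed here. Its column medians, in the authors' units, were 102.8 to 141.2 at 30 dpf and 101.7 to 111.2 at 5 dpf.

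Spot means were corrected by normexp (offset 50), taken to log2, averaged over the 12 spots of a probe and quantile-normalized over the mature probes of all 20 samples. A probe was above background where its mean intensity exceeded the median empty spot (282 to 572 in Cy3, 35.2 to 47.2 in Cy5) by over 3 robust standard deviations, and was tested where this held in at least 2 samples of any wild-type group. limma 3.58.1 in R 4.3.3 (lmFit, eBayes) was fitted to the 10 wild-type samples with age, cohort and dye (residual degrees of freedom 6, prior 2.99). Two-sided p-values were corrected with the Benjamini-Hochberg method across 163 probes, at a threshold of 0.05. The age by cohort term came from a second fit, and the comparison with mutants from a fit of all 20 samples chosen after seeing the data. The pipeline was tested on simulated data. The number of arrays limits the precision. Dyes were 2 Cy3 and 4 Cy5 at 30 dpf, and 2 Cy3 and 2 Cy5 at 5 dpf.

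Named probes were the 12 largest differences each way among calls whose ages did not overlap, members of each list (all of lists of 6 or fewer tested, otherwise the 2 largest), the 6 smallest p of the age by cohort term, the 6 smallest differences above the median level, and hairpins with both strands tested. The comparison, lists and rule were chosen with earlier results of these data known. Gene neighbours came from RefSeq's gene table, in which 184 of 193 guide-strand probes were matched. Alternatives varied the normalization, background correction, filter, model terms and samples. Samples sharing an array were inferred from residuals of single spots (correlations of 0.422 to 0.825 between partners of opposite dye), since the labels do not give them. Python 3.11.15 with matplotlib 3.10.9 drew the figures.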

Additional observations from a re-analysis of the deposited data

Results flagged for a closer look

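Single samples far from the others of their age were found for 23 of 224 combinations of a named probe and an age, by a rule that chance meets in about 1 in 20 groups. SLW replicate 8 accounted for 11 of them at 30 dpf. Its gut, liver and exocrine pancreas probes were high: miR-192 at 14.65, miR-194a at 12.57, miR-194b at 8.09, miR-122 at 12.09, miR-217 at 9.80 and miR-216a at 7.32. Its muscle probes were low: miR-1 at 13.94, miR-206 at 13.64 and miR-133c at 7.75. For miR-1 and for miR-206 the other juveniles shared a single value, fixed by rank under quantile normalization. Those flags therefore show a lower rank, and the chance rate given above does not cover such ties. SLW replicate 8 was also the highest of the 6 for miR-150 (9.96) and miR-31 (8.44).

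At 30 dpf the other 3 were miR-462 in SLW replicate 2 (8.79), miR-15a in SW replicate 4 (9.64) and miR-9 in SW replicate 4 (9.68). At 5 dpf SLW replicate 1 was apart for let-7a (9.30), miR-133c (11.18) and miR-222 (9.74), and SLW replicate 2 for miR-99 (9.13). SW replicate 1 was apart for miR-132 (8.35) and miR-20a* (7.0), and SW replicate 2 for miR-206 (14.30), miR-216b (7.67) and miR-727* (6.77). The other larval samples all read 14.65 for miR-206, a value set by rank, so that flag shows a lower rank alone.

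The age difference of mutants minus that of wild types passed limma's threshold for 11 probes, in a fit that ignored which samples shared an array. It was below 0 for miR-152 (-2.02), miR-499 (-2.01), miR-15b (-1.57), miR-27c (-1.43), miR-199* (-1.04), miR-21 (-0.99) and miR-26b (-0.91). It was above 0 for miR-739 (4.32), miR-184 (1.59), miR-92a (0.93) and miR-430b (0.68). The wild-type larval sample SLW replicate 1 read 13.94 for miR-739, and without it the difference was 2.68, limma adjusted p = 0.00342. The fit without that sample gave no call for miR-152, miR-199*, miR-26b (-0.73, limma adjusted p = 0.118) and miR-499 (-1.63, limma adjusted p = 0.0826).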

How the results depend on the processing

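All 83 calls kept their sign in every leave-one-out fit, and 60 of them (32 higher, 28 lower) were also called in all 10 of these fits and in 14 other settings. These fits share most of their samples with the main fit and are not separate tests. Leaving out 1 sample gave 38 to 49 higher calls, 31 to 46 lower calls, 0 to 10 calls for the age by cohort term and 0 for cohort; 20 calls (11 higher, 9 lower) were lost in at least 1 such fit. Within SLW alone there were 8 higher and 14 lower calls and within Cy5 alone 28 and 26, beside 44 and 42 within SW and 37 and 35 within Cy3, and the cause was not tested. The age by cohort term gave 1 call without background correction, 1 with the median of spots, 1 without the dye term, 1 without SLW replicate 8 at 30 dpf, 6 with all 20 samples and 10 without SLW replicate 2 at 5 dpf. The cohort term gave 1 call with all 20 samples. No paired analysis was possible because the ages share replicate number 2 alone in each cohort (correlation of deviations 0.494 in SW and -0.167 in SLW); the replicate block as a random term gave 46 higher, 38 lower and 1 age by cohort call. Probes near background at one age, such as miR-430 at 30 dpf and miR-731 at 5 dpf, have only bounds there, and at the bright end quantile normalization fixes the value of miR-1 and miR-206 by rank.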
